A study of Mus musculus with 6 samples.

Results

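Csf2 encodes GM-CSF, a growth factor of granulocytes and macrophages, and Csf2ra, Csf2rb, Csf2rb2 and Csf3r encode receptors for it and for related factors. These 5 genes, chosen by name among the 32285 genes listed for each library, are described here across 6 libraries of mouse colon cells, made by droplet sequencing of RNA from single cells. Macrophages of donor origin, sorted as CD11b+ CD64+, came from mice given bone marrow with spleen cells (GVHD, graft-versus-host disease) or bone marrow alone (BM), and from IL-34-/- (IL34KO) and wild-type (WT) transplant recipients. Donor T cells were sorted from IL34KO and WT recipients, and this genotype is the recipient's, not the sorted cells'. Each group was 1 library, and the strain, age, number of pooled animals and graft of the IL34KO and WT recipients are not given in the sources used here. Every difference below is therefore a difference between 2 libraries with no replicate check, and its interval (95%) covers counting error only.

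T cells are a major source of GM-CSF in inflamed tissue, and the factor acts on monocytes, macrophages, dendritic cells and neutrophils. Its receptor joins an alpha chain, encoded by Csf2ra, which binds GM-CSF alone, to a beta chain, encoded by Csf2rb, which signals through JAK2 and STAT5 and is shared with the receptors of IL-3 and IL-5. Mice carry an additional beta chain, encoded by Csf2rb2, which serves the IL-3 receptor. Csf3r encodes the receptor of G-CSF, the main growth factor of neutrophils.

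In mm10 (GENCODE M21) Csf2 lies at chr11:54247271-54249667 on the minus strand, Csf2ra at chr19:61223957-61228429 on the minus strand and Csf3r at chr4:126024550-126044440 on the plus strand. Csf2rb2 at chr15:78282507-78305721 (minus strand) and Csf2rb at chr15:78325752-78353847 (plus strand) stand back to back, 20030 bases apart. Their coding sequences are 95.3% identical over 2631 aligned bases, and 26.0% of the 50-base words of the Csf2rb coding sequence also occur in that of Csf2rb2. In the last 500 bases of the 2 transcripts the identity is 85.4% and no 50-base word is shared, while in the first 500 bases the identity is 96.8% and 29% of the words are shared. A read from a shared stretch cannot be given to 1 of the 2 genes, so the split between them is uncertain, more so in a 5′ library than in a 3′ one. The labels name kits of both kinds without saying which library had which. The first 60 coding bases show how close the pair is, with the 1 base that differs in capitals:
Csf2rb: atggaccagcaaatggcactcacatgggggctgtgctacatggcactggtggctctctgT
Csf2rb2: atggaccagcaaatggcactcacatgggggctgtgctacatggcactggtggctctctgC

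The Csf2 transcript is short-lived in resting cells because of AU-rich repeats after its stop codon, which Zfp36 and related proteins bind. The 317 bases between stop codon and transcript end hold 9 ATTTA pentamers, overlaps counted, against 0 in the same part of each of the 4 receptor transcripts. The 30 bases with the most pentamers, shown because Zfp36 is among the genes followed below, are given as DNA with the pentamers in capitals:
Csf2: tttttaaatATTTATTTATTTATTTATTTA

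RefSeq promoter windows (GRCm38.p6, 250 bases before to 50 after a start site) were at hand for 4 of the 5 genes. The windows of Csf2rb2 (chr15:78305672-78305971, minus strand) and Csf3r (chr4:126024409-126024708, plus strand) are shown because these receptors differed in opposite directions between GVHD and BM macrophages. Capitals mark GAGGAA or its reverse complement TTCCTC, the core letters of sites bound by PU.1, the product of Spi1:
Csf2rb2: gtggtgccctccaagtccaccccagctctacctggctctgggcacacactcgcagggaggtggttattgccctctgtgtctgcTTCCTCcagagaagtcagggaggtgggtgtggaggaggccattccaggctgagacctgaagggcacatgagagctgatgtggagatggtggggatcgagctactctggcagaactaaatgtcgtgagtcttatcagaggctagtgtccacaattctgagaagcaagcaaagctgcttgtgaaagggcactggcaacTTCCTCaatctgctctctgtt
Csf3r: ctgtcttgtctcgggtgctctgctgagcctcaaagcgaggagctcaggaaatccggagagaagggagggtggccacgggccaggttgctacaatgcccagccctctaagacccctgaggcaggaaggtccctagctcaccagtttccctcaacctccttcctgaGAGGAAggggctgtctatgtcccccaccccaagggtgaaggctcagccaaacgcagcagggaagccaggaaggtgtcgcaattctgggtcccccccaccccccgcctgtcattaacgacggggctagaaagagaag
The Csf2rb2 window holds 2 matches, at -167 and 29 from the start site, the Csf3r window 1 match at -86, the Csf2ra window 2 matches and the Csf2 window 0. Of all 32851 windows of this length, 28.3% hold at least 1. The Csf3r and Csf2 start sites of RefSeq lie 109 and 232 bases from those of GENCODE.

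After filters the libraries kept 2698 (GVHD), 2546 (BM), 6494 (labelled IL34KO, macrophage sort), 5245 (WT, macrophage sort), 8569 (labelled IL34KO, T-cell sort) and 14061 (WT, T-cell sort) barcodes, with median depths of 6162 to 15577.5 unique molecular identifiers (UMIs). Of the BM barcodes, 2502 also occurred in GVHD, 60% of the GVHD barcodes, and other pairs of libraries shared 5 to 75. The 2502 held a median of 17372 UMIs in GVHD and 1515 UMIs in BM, with more in GVHD for 2486 of them. They were dropped from BM and kept in GVHD, and the library they came from was not checked further. They made up most GVHD myeloid cells, so values without any barcode of more than 1 library are given beside the main GVHD results. The GVHD myeloid cells left were few and shallower. At a near equal level, Csf2ra had 11704 UMIs in 2182 GVHD myeloid cells with these barcodes and 188 UMIs in 171 without. Such values therefore do not repeat the main comparison on the same cells. Cells were put into classes by the number of marker genes detected, without using the 5 genes. Despite the sorts, 1713 and 2910 T cells and 4013 and 7258 myeloid cells were found in the T-cell libraries labelled IL34KO and WT, so the label T-Cells describes a minority of their barcodes. The macrophage libraries held 98 to 275 T cells and 1978 to 3132 myeloid cells, and neutrophils reached 50 cells in 2 libraries (511 labelled IL34KO, 213 WT). Il34 itself was not lower in the libraries labelled IL34KO: in epithelial-marker cells it stood at 5.38 (95% interval 4.39 to 6.53) CPM (UMIs of the gene per 1e6 UMIs of the class) labelled IL34KO against 3.63 (2.64 to 4.88) CPM in WT in the macrophage sort. In the T-cell sort it stood at 4.39 (3.09 to 6.05) CPM labelled IL34KO against 3.34 (2.35 to 4.61) CPM in WT. No source used here says which stretch of Il34 the deletion removes, so its reads may not check the genotype, and these libraries are called by their labels throughout.

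The 5 genes differed between cell classes (plot of levels by class and library). Csf2 stood in T cells at 6.17 to 128 CPM over the 6 libraries, against 0 to 1.14 CPM in myeloid cells and 0 of 511 and 0 of 213 neutrophils, which allows up to 2.36 CPM in neutrophils of the library labelled IL34KO and 5.01 CPM in those of the WT library. Csf2ra (195 to 241 CPM), Csf2rb (291 to 556 CPM) and Csf2rb2 (85.0 to 164 CPM) were found in myeloid cells of every library and in neutrophils. Csf3r reached 853 (802.7 to 905) CPM in neutrophils labelled IL34KO and 840 (769 to 917) CPM in WT neutrophils, 17.6-fold (16.4 to 19.0) and 18.8-fold (17.0 to 20.7) the level in myeloid cells of the same library. Within a library, Csf2rb2 was lower in neutrophils than in myeloid cells, with ratios of 0.416 (0.322 to 0.531) labelled IL34KO and 0.512 (0.358 to 0.71) in WT, while the intervals of the Csf2rb ratios, 0.936 (0.865 to 1.01) and 0.915 (0.809 to 1.03), held 1. In 55 dendritic-marker cells of the WT T-cell library Csf2ra stood at 142 CPM, Csf2rb at 490.5 CPM and Csf2rb2 at 70.1 CPM, and Csf3r had 0 UMIs, which allows up to 7.01 CPM.

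**Figure D1:**
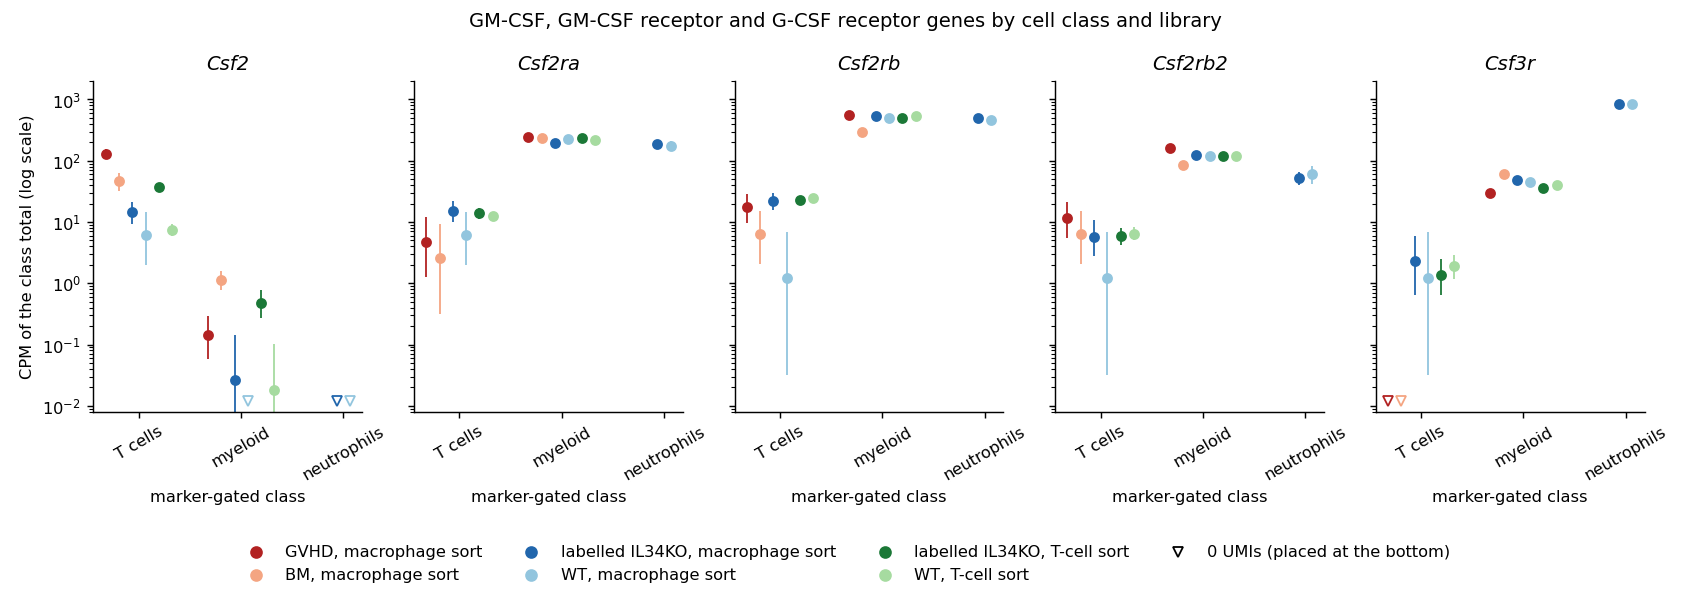
Each point is 1 library's level of a gene in 1 marker-gated class, in CPM of the class total on a log scale, with its 95% counting interval; T cells, myeloid cells and neutrophils are plotted where a library held 50 of them, and open triangles mark 0 UMIs. Among these 3 classes Csf2 is highest in T cells (128 CPM in GVHD), and Csf3r in neutrophils (853 CPM labelled IL34KO and 840 CPM in WT) lies far above its 29.7 to 60.8 CPM in myeloid cells.

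The 4 receptor genes were also counted in T cells, at 0 to 24.3 CPM. These levels were 0 to 7.72% of those in myeloid cells of the same library. Lyz2, Cd14, Mpeg1 and Sirpa, macrophage genes that T cells should lack, gave 0.172 to 5.46% by the same measure. Set against the range of these 4 genes in the same library, Csf2ra, Csf2rb and Csf2rb2 lay above it in GVHD (1.93 to 7.06% against 0.341 to 1.83%) and in BM (1.10 to 7.53% against 0.172 to 0.801%), from 2 to 15 UMIs a gene and library, and Csf3r had 0 UMIs in both. In the macrophage sort labelled IL34KO, Csf2ra (7.72%) lay above the range of 3.20 to 5.46% and the other three receptor genes within it. In the WT macrophage sort Csf2ra (2.74%) and Csf3r (2.76%) lay above the range of 1.03 to 2.44%, from 5 and 1 UMIs. In the T-cell sort labelled IL34KO all 4 (3.87 to 5.90%) lay above the range of 3.25 to 3.69%, and in the WT T-cell sort Csf2ra (5.71%) and Csf2rb2 (5.50%) lay above 3.65 to 4.96%. The part of free RNA in these T-cell counts was not tested, so they are not read as expression, and differences between libraries in them are given by their counts alone.

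Csf2 in T cells of the T-cell libraries differed between the IL34KO and WT labels. It was detected as 278 UMIs in 114 of 1713 T cells in the library labelled IL34KO, against 83 UMIs in 63 of 2910 T cells in the WT library. The levels were 37.9 (33.6 to 42.7) CPM labelled IL34KO and 7.46 (5.94 to 9.25) CPM in WT, a 5.08-fold difference (3.97 to 6.58). It was the 1 member of 5 that passed 1.5-fold, where 3.62% of the 9909 genes measured in T cells did in either direction (2.43% higher, 1.19% lower). Without the 5 T cells richest in Csf2 in each library the levels were 27.4 and 5.50 CPM (4.99-fold, 3.73 to 6.76). After every T cell was thinned to 1500 UMIs, 3.38% of 1566 cells labelled IL34KO and 0.727% of 2613 WT cells had a Csf2 UMI, against 6.65% and 2.16% unthinned. In myeloid cells of the same libraries, which were deeper (medians of 7916 UMIs labelled IL34KO and 7028.5 UMIs in WT), 0.249% and 0.0138% of cells had one. T cells were of similar depth in the library labelled IL34KO (median 3292 UMIs) and the WT library (3028 UMIs), and mitochondrial shares were 1.52% and 1.46%.

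Barcodes with T-cell and other markers at once, which can hold more than 1 cell, carried much of the remaining Csf2. They were 575 barcodes with 155 Csf2 UMIs (20.2 CPM) in the library labelled IL34KO and 916 barcodes with 23 UMIs (2.14 CPM) in the WT library, 9.45-fold apart (6.07 to 15.3). They were kept out of the T-cell values above.

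The difference was present in CD4 and CD8 T cells. T cells with a Cd4 UMI and none of Cd8a, Cd8b1 or Foxp3 held Csf2 at 118 CPM in 397 cells labelled IL34KO and 19.2 CPM in 674 WT cells (6.16-fold, 4.45 to 8.68). The CD8 counterparts held 8.81 CPM in 913 cells labelled IL34KO and 2.70 CPM in 1509 WT cells (3.26-fold, 1.79 to 6.18). The intervals of these 2 ratios overlap, and whether the subsets differ was not tested. Cells with a Foxp3 UMI, the mark of regulatory T cells, numbered 22 in each library and are too few to place. The numbers of Cd4 cells among T cells, 397 of 1713 labelled IL34KO and 674 of 2910 in WT, were close to each other.

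**Figure D2:**
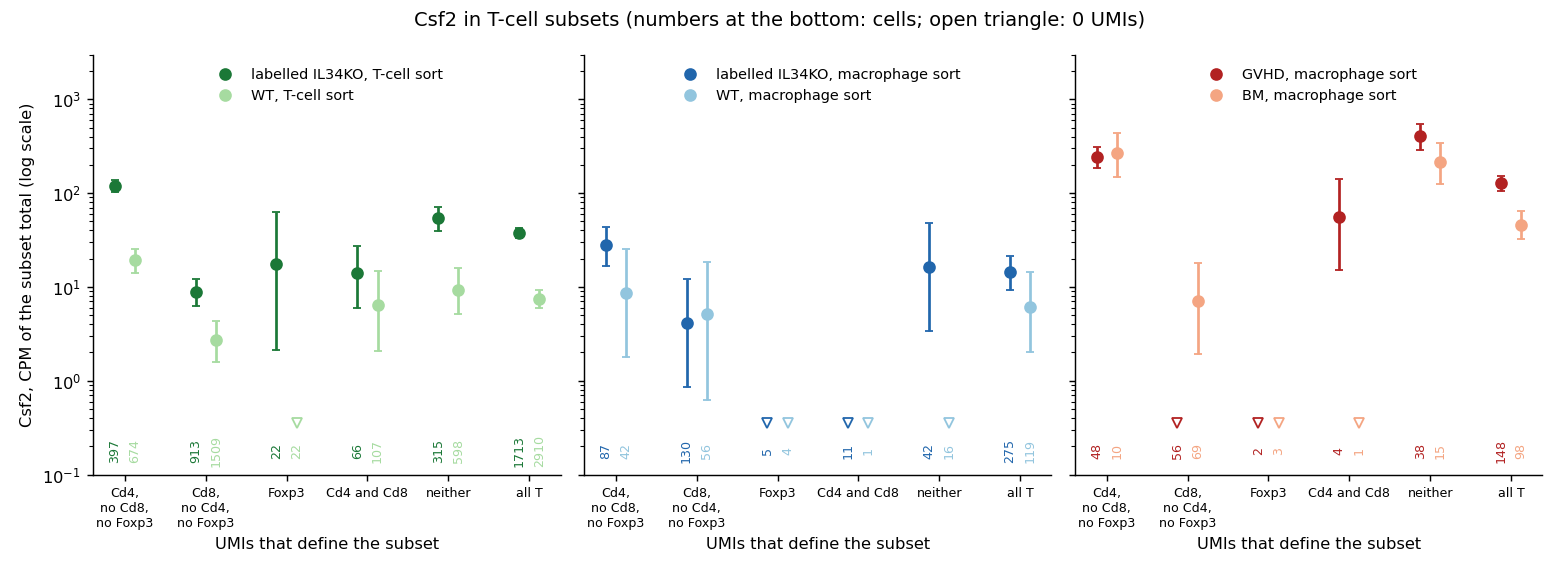
Csf2 level in T-cell subsets, in CPM of the subset total on a log scale with 95% counting intervals, for 3 pairs of libraries; the numbers of cells stand at the bottom and open triangles mark 0 UMIs. In the T-cell sort the Cd4 subset lies at 118 CPM labelled IL34KO and 19.2 CPM in WT, while in the macrophage sort the GVHD and BM Cd4 subsets (240 and 268 CPM) overlap.

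T cells with a Csf2 UMI held more transcript of Il2ra and Ifng in both libraries. Il2ra, the alpha chain of the IL-2 receptor induced on activation, stood at 393 CPM in T cells with Csf2 and 99.7 CPM in those without in the library labelled IL34KO, and at 374 and 110 CPM in the WT library. Ifng, the interferon of type 1 responses, stood at 1227 and 409 CPM labelled IL34KO and at 1601 and 418 CPM in WT. The ratio of T cells with Csf2 to those without was also above 1 for Rel (1.81 labelled IL34KO and 1.85 in WT). Gata3 (1.78 and 2.24), Bhlhe40 (1.43 and 1.28) and Cd4 (2.67 and 1.82) were likewise higher in both libraries. Ikzf3 (0.788 and 0.732), Cd8a (0.465 and 0.636) and Cd8b1 (0.327 and 0.332) were lower in both. Other genes followed neither direction as clearly: the ratio was 0.846 and 1.59 for Tnf, 1.49 and 0.958 for Nfatc1, and 0.849 and 0.397 for Zfp36. Il17a and Il22, cytokines of type 3 responses, had 0 UMIs in the 114 and 63 Csf2-positive T cells of the 2 libraries. They were also rare in T cells without Csf2: Il17a was found in 1.06% labelled IL34KO and 0.738% in WT, and Il22 in 0.5% and 0.176%. The Csf2-positive cells are therefore too few to tell whether they lack these genes. Cells with a Csf2 UMI were deeper (medians of 4432.5 UMIs labelled IL34KO and 4465 UMIs in WT) than cells without (3185 and 3002 UMIs), so shares of detected genes are not compared. Grouped by Il2ra instead, T cells with an Il2ra UMI held Csf2 at 95 CPM labelled IL34KO and 18.0 CPM in WT, and T cells without one at 12.4 CPM and 3.37 CPM. The numbers of cells with an Il2ra UMI were 413 of 1713 labelled IL34KO and 602 of 2910 in WT.

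Among 20 genes listed as regulators or companions of Csf2 in T cells, 18 were measured (at least 5 CPM in 1 library), and 4 were higher and 0 lower by 1.5-fold in T cells of the library labelled IL34KO, where 2.43% of all measured genes were higher and 1.19% lower. These were Il22 (5.19 against 1.08 CPM in WT), the IL-23 receptor gene Il23r (9.14 against 2.61 CPM), Il17a (15.0 against 4.86 CPM) and Zfp36 (92.4 against 43.7 CPM), whose product promotes decay of AU-rich transcripts such as Csf2. Il22, Il23r and Il17a reached 5 CPM only in the library labelled IL34KO, so they entered the count through the library where they were higher. They also rest on few cells. Among T cells without Csf2, an Il23r UMI was found in 1.31% labelled IL34KO and 0.562% in WT, and Il17a and Il22 were as rare. The median log2 ratio of the list was 0.17, against 0.07 over all measured genes. Zfp36 was also higher in myeloid cells of the same library pair (451 CPM labelled IL34KO and 247 CPM in WT), and so was Socs3, an inhibitor of cytokine signalling (285 and 185 CPM). A list of 16 immediate-early and heat-shock genes, which also respond to tissue handling, summed to 3969 CPM in T cells labelled IL34KO and 3209 CPM in WT T cells, with 1 of 16 higher by 1.5-fold and a median log2 ratio of 0.27. The part of handling in the Csf2 difference was not tested.

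The T cells that came with the macrophage sort gave the same direction with far fewer counts. Csf2 stood at 14.5 (9.37 to 21.4) CPM from 25 UMIs in 275 cells labelled IL34KO and at 6.17 (2.00 to 14.4) CPM from 5 UMIs in 119 WT cells. The ratio of 2.35 had an interval of 0.882 to 7.85, so a difference was not detectable at this depth. In this comparison 25.2% of all genes (15.8% higher, 9.41% lower) passed 1.5-fold, and 4 of the 5 members did. The other three were Csf2ra, Csf2rb and Csf2rb2, with 26, 38 and 10 UMIs labelled IL34KO and 5, 1 and 1 UMIs in WT.

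In T cells Csf2 stood at its highest levels in the GVHD and BM libraries, but in few cells, and the direction between GVHD and BM depended on the barcodes found in more than 1 library. The GVHD library held 110 UMIs in 14 of 148 T cells (128 CPM, 105 to 154) and the BM library 36 UMIs in 7 of 98 T cells (46.1 CPM, 32.3 to 63.9). The ratio was 2.77 (1.88 to 4.15), with 40.6% of all genes (25.3% higher, 15.3% lower) and 3 of the 5 members past 1.5-fold; the other two of these were Csf2rb (15 UMIs in GVHD and 5 in BM) and Csf2rb2 (10 and 5 UMIs). A single cell held 39 of the 110 GVHD UMIs and another 14 of the 36 BM UMIs. Without the 3 richest cells of each library the levels were 38.2 and 7.92 CPM (4.83-fold, 1.99 to 14.1), from 32 and 6 UMIs. Without the 5 richest they were 27.9 and 2.74 CPM (10.2-fold, 2.51 to 89.0), from 23 and 2 UMIs. That step takes 5 of the 7 BM cells with Csf2 but 5 of the 14 in GVHD, so the rise is not read as a larger difference. After thinning to 1500 UMIs a cell the ratio was 1.45. With every barcode of more than 1 library left out, GVHD held 12 UMIs in 5 of 101 T cells (34.7 CPM). BM then held 36 UMIs in 7 of 97 T cells (46.4 CPM). The ratio was 0.746 (0.354 to 1.47), from a part of the GVHD T cells only, so neither the size nor the direction is fixed. Cd4 cells without Cd8 or Foxp3 were 48 of 148 T cells in GVHD and 10 of 98 in BM, and within them Csf2 stood at 240 CPM in GVHD, from 10 cells with a UMI, and 268 CPM in BM, from 2 (ratio 0.895, 0.504 to 1.69). In the CD8 counterparts GVHD had 0 Csf2 UMIs in 56 cells and BM 4 UMIs in 69 cells (7.05 CPM). T cells with a UMI of neither Cd4, Cd8 nor Foxp3 held 42 UMIs in 38 GVHD cells (404 CPM), from 2 cells with a UMI. In BM they held 17 UMIs in 15 cells (213 CPM), from 3 cells with a UMI. The ratio of 1.90 (1.06 to 3.55) thus rests on very few cells, and its interval does not cover differences between cells. Without barcodes of more than 1 library the Cd4 ratio was 0.233 (0.0898 to 0.568), from 9 UMIs in GVHD and 15 in BM, and that of the cells with neither 0.159 (0.0299 to 0.55), from 3 and 17 UMIs. The 16 handling genes named above summed to 6832 CPM in GVHD T cells and 5744 CPM in BM T cells, with 4 higher and 2 lower, among them Hspa1a (514 and 145 CPM) and Hspa1b (632 and 96.1 CPM). Summed markers were 304 and 783 CPM for myeloid cells (11 and 12 of 13 detected), 246 and 104 CPM for stromal cells (4 of 7 in both) and 182 and 71.7 CPM for epithelial cells (10 and 9 of 10), and T cells held medians of 4417.5 UMIs in GVHD and 5945.5 UMIs in BM. Their part in the Csf2 values was not tested. Over all 6 libraries the order of Csf2 in T cells was GVHD, BM, labelled IL34KO (T-cell sort), labelled IL34KO (macrophage sort), WT (T-cell sort) and WT (macrophage sort). GVHD took the first place only with the shared barcodes. BM and the T-cell sort labelled IL34KO could not be separated (1.22, 0.834 to 1.72), nor could the 2 WT libraries (1.21, 0.498 to 3.82).

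In the BM library most Csf2 lay outside T cells (plot of the classes that hold the Csf2 UMIs). Of its 326 Csf2 UMIs in kept barcodes, 65.6% fell in 56 cells that carried innate lymphoid markers and failed the T-cell gate, a class that made up 2.20% of the barcodes. Csf2 stood at 637 (554 to 728) CPM there, with a UMI in 32 of 56 cells and 82 of the 214 UMIs in 1 cell; without that cell the level was 402 CPM. In these cells Il7r was detected in 50, Gata3 in 45, Areg in 38, Il1rl1, the IL-33 receptor gene, in 30 and Il5 in 19 of 56. Cd3e was detected in 0 of 56. Of the 32 cells with Csf2, 30 had Gata3 and 0 had Il22. Gata3, Il1rl1, Il5 and Il13 are known as genes of group 2 innate lymphoid cells, which make GM-CSF in mice; a CD11b+ CD64+ sort would remove such cells. GVHD held 2 cells of this class, with 0 Csf2 UMIs, so the level there cannot be given. The 34 Csf2 UMIs in BM myeloid cells followed the same markers: 31 fell in 31 myeloid cells with at least 2 innate lymphoid markers and 3 in the other 1947. In GVHD 1 UMI fell in 51 such myeloid cells and 6 in the other 2131.

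**Figure D3:**
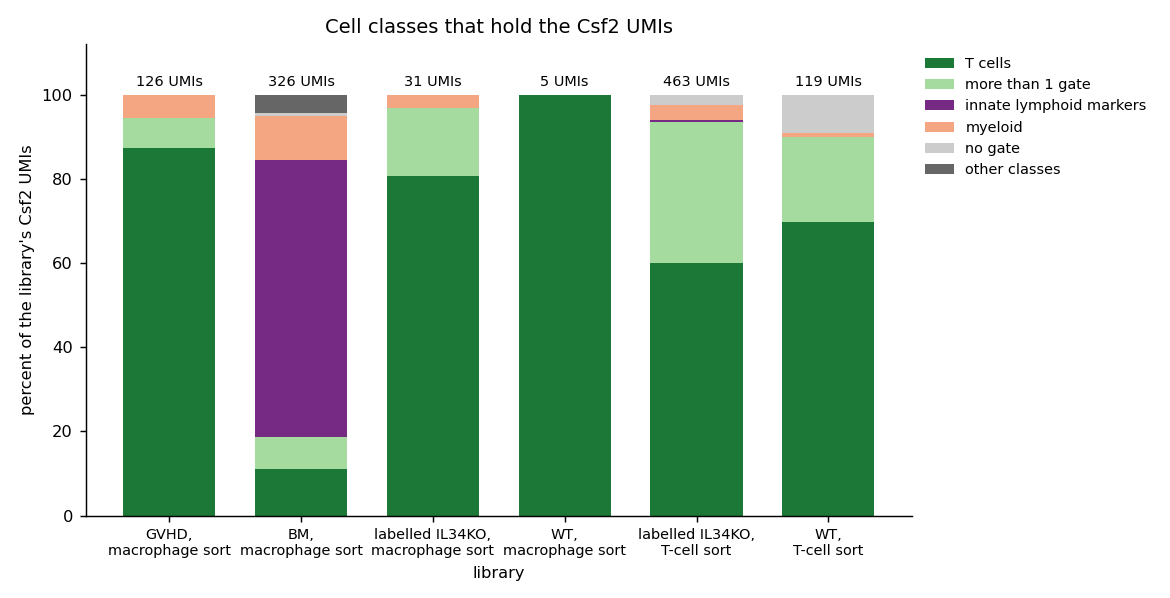
Bars show, for each library, the percent of Csf2 UMIs in each class of kept barcodes, with the number of UMIs above. T cells hold 87.3% of them in GVHD and 11% in BM, where 65.6% lie in cells with innate lymphoid markers. The GVHD bar includes barcodes also found in BM. Without barcodes of more than 1 library, GVHD T cells held 12 Csf2 UMIs in place of 110, and BM T cells 36.

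In myeloid cells the receptor genes differed between GVHD and BM (plot of receptor ratios). The beta chain gene Csf2rb stood at 556 (549 to 562) CPM in 2182 GVHD cells and 291 (285 to 297) CPM in 1978 BM cells, a ratio of 1.91 (1.86 to 1.95). Csf2rb2 stood at 164 (161 to 168) CPM in GVHD and 85.0 (81.8 to 88.4) CPM in BM, a ratio of 1.93 (1.85 to 2.02). The alpha chain gene Csf2ra was nearly level, at 241 CPM in GVHD and 232 CPM in BM (1.04, 1.01 to 1.07). Csf3r was lower in GVHD, at 29.7 (28.2 to 31.3) CPM against 60.8 (58.0 to 63.6) CPM in BM, 2.04-fold (1.91 to 2.19). Thus 3 of the 5 members passed 1.5-fold, where 33.6% of 9815 measured genes did (15% higher, 18.6% lower), so the count is not large for these libraries. Without barcodes of more than 1 library, 171 GVHD and 1953 BM myeloid cells were left, and the ratio was 1.67 (1.51 to 1.85) for Csf2rb, 1.80 (1.49 to 2.15) for Csf2rb2, 0.983 (0.845 to 1.14) for Csf2ra and 0.566 (0.375 to 0.821) for Csf3r.

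BM was the library apart for the beta chain. In the other 4 libraries myeloid Csf2rb stood at 542 CPM (labelled IL34KO, macrophage sort), 502 CPM (WT, macrophage sort), 507 CPM (labelled IL34KO, T-cell sort) and 528 CPM (WT, T-cell sort), close to GVHD. Csf2rb2 ran from 117 to 125 CPM in these 4, between BM and GVHD. Csf3r ran from 35.2 to 48.3 CPM, likewise between them. The share of Csf2rb2 among the UMIs of both beta chain genes was 22.8% (22.4 to 23.3) in GVHD and 22.6% (21.8 to 23.4) in BM, against 18.2 to 19.3% in the other 4 libraries. The kit of each library is not given, and its part in this share was not tested.

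**Figure D4:**
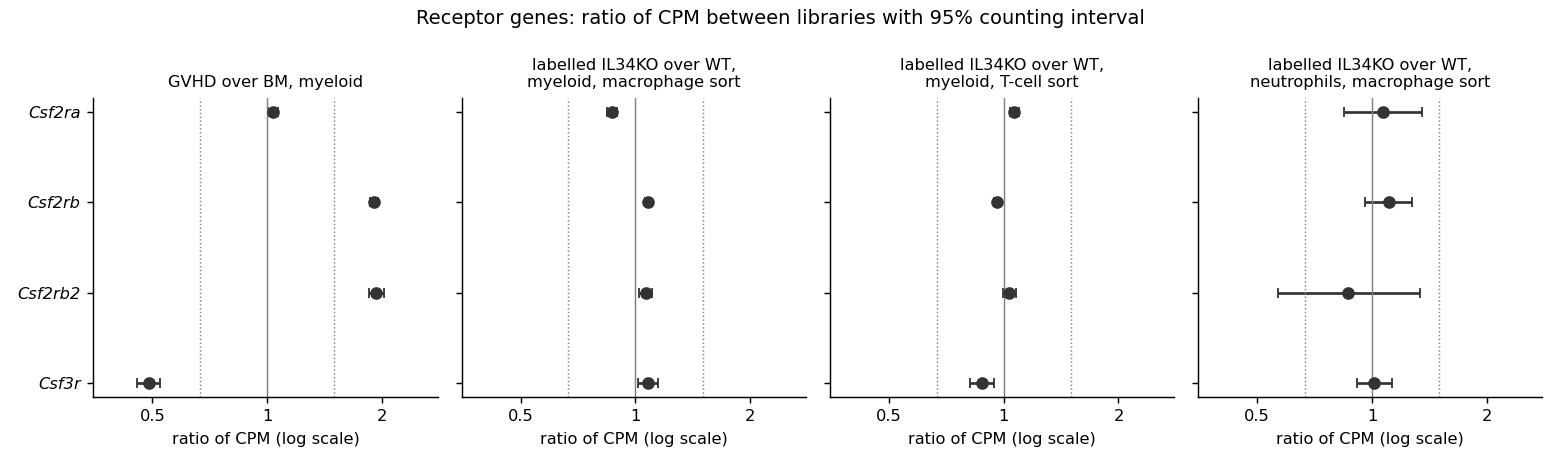
Ratios of CPM with 95% counting intervals on a log scale; dotted lines mark 1.5-fold in either direction. In GVHD over BM myeloid cells Csf2rb (1.91) and Csf2rb2 (1.93) lie above and Csf3r (0.489) below the lines, and in the 3 comparisons of the IL34KO and WT labels every receptor ratio lies within them.

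The myeloid cells of the 2 libraries were of different maturity. Cells with more monocyte than mature macrophage markers, called the monocyte side here, were 378 in GVHD (17.3%) and 53 in BM (2.68%), and cells on the mature side, with at least 3 more mature macrophage markers, were 395 (18.1%) and 1773 (89.6%). Within each bin Csf2rb, Csf2rb2 and Csf3r differed in the same direction as over all myeloid cells (plot by marker balance). On the mature side Csf2rb stood at 535 CPM in GVHD and 285 CPM in BM (1.88, 1.80 to 1.96), in between at 556 and 328 CPM (1.70, 1.58 to 1.82) and on the monocyte side at 565 and 395 CPM (1.43, 1.27 to 1.61), where it missed 1.5-fold. Csf2rb2 was higher in GVHD by 2.00-fold on the mature side, 1.81-fold in between and 1.94-fold on the monocyte side. Csf3r was lower in GVHD by 2.42-fold on the mature side, 2.16-fold in between and 2.04-fold on the monocyte side. Csf2ra showed no such pattern, with ratios of 1.04, 0.96 and 0.842. Without barcodes of more than 1 library the Csf2rb ratio was 1.73 on the mature side (54 GVHD cells), 1.48 in between (105 cells) and 1.22 (0.79 to 1.81) on the monocyte side (12 cells). On the monocyte side Csf3r then stood at 6 UMIs in GVHD and 48 in BM, with a ratio above 1 (1.62, 0.565 to 3.78). Within BM, Csf2rb was 1.39-fold (1.23 to 1.56) higher on the monocyte side than on the mature side, against 1.06-fold (1.01 to 1.10) within GVHD.

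**Figure D5:**
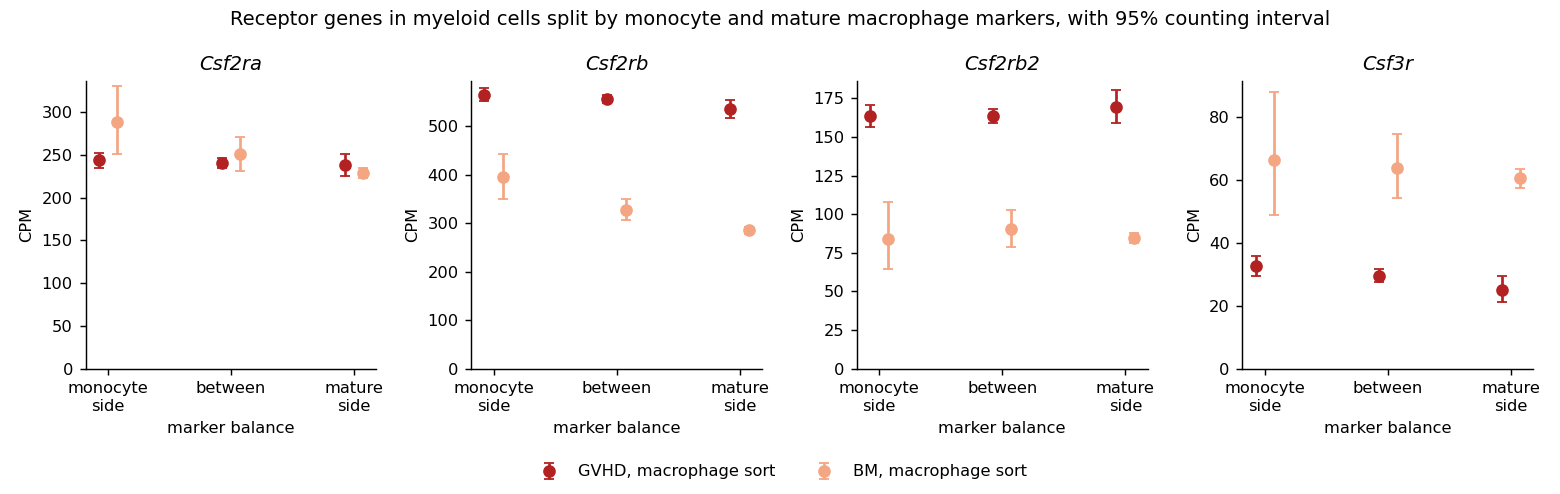
Level of each receptor gene in CPM with 95% counting intervals, in myeloid cells split by the balance of 6 monocyte and 8 mature macrophage markers, GVHD left of BM in each bin. Csf2rb and Csf2rb2 are higher and Csf3r lower in GVHD in all 3 bins, and Csf2ra lies at 238 to 243 CPM in the GVHD bins and 229 to 289 CPM in the BM bins.

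Summed markers of other cells in GVHD and BM myeloid cells were 357 and 344 CPM for neutrophils (9 of 10 detected in both), 94.0 and 69.2 CPM for dendritic cells (7 and 8 of 8), 67.9 and 33.0 CPM for epithelial cells (10 of 10 in both), 24.1 and 76.8 CPM for stromal cells (7 of 7 in both) and 2.78 and 4.18 CPM for T cells (6 of 6 in both). Myeloid cells with at least 3 dendritic markers were 177 in GVHD and 32 in BM, and without them Csf2rb stood at 545 and 288 CPM. The median myeloid cell held 17560.5 UMIs in GVHD and 13138 UMIs in BM, with 3.28% and 2.73% mitochondrial UMIs. The 16 immediate-early and heat-shock genes summed to 7550 CPM in GVHD and 14074 CPM in BM, with 11 of 16 lower in GVHD by 1.5-fold, and their part in the receptor differences was not tested. Thinned to 2000 UMIs a cell, Csf2rb was detected in 63.9% of GVHD and 37.3% of BM cells, and Csf3r in 5.38% and 11.4%. A UMI of Csf2ra together with 1 of Csf2rb was found in 26.5% and 16.2% of thinned cells, close to the 26.8% and 16.1% given by the product of the shares of each gene.

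Genes downstream of the receptor differed member by member. Of 12 signalling genes, 3 were higher in GVHD myeloid cells and 1 lower, close to the 33.6% of all measured genes that passed 1.5-fold (15% higher, 18.6% lower): the STAT5-induced inhibitors Socs2 (76.1 CPM in GVHD and 13.3 CPM in BM) and Cish (70.3 and 27.6 CPM), and Socs1 (38.8 and 16.9 CPM), were higher, and the survival gene Bcl2l1 (30.2 and 78.2 CPM) was lower. Of 8 myeloid genes known to respond to GM-CSF, 4 were higher and 1 lower, against the same shares of all genes. The activin gene Inhba stood at 139 CPM in GVHD and 4.28 CPM in BM, the chemokine gene Ccl17 at 143 and 6.55 CPM, Ccl22 at 17.9 and 8.15 CPM, and Pparg, which GM-CSF induces in lung macrophages, at 8.47 and 72.1 CPM. The median log2 ratio was -0.03 for the signalling genes and 0.42 for the response genes, against -0.01 over all measured genes. Without barcodes of more than 1 library the ratio of GVHD to BM was 4.75 for Socs2, 2.01 for Cish, 1.51 (0.924 to 2.33) for Socs1, 0.266 for Bcl2l1, 11.2 for Inhba, 8.40 for Ccl17 and 0.117 for Pparg, while that of Ccl22 turned to 0.743 (0.239 to 1.76) from 5 GVHD UMIs. Among the related receptors Csf1r was lower in GVHD (499.9 and 777 CPM, and a ratio of 0.591 without those barcodes), and the ligand gene Csf1 stood at 19.9 and 15.3 CPM.

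Between the IL34KO and WT labels the receptor genes of myeloid cells stayed within 1.5-fold in both sorts. In the macrophage sort, where 2.31% of genes (0.76% higher, 1.55% lower) and 0 members passed 1.5-fold, Csf2ra stood at 195 (191 to 199.6) CPM labelled IL34KO and 225 (221 to 229) CPM in WT, a ratio of 0.867 (0.842 to 0.893). Csf2rb stood at 542 and 502 CPM (1.08, 1.06 to 1.10), Csf2rb2 at 125 and 117 CPM (1.06, 1.02 to 1.11) and Csf3r at 48.3 and 44.8 CPM (1.08, 1.01 to 1.15). In myeloid cells of the T-cell sort 1.3% of genes (0.884% higher, 0.415% lower) and 0 members passed. Csf2ra stood there at 234 (228 to 239) CPM labelled IL34KO and 219 (215 to 223) CPM in WT (1.07, 1.04 to 1.10), Csf2rb at 507 and 528 CPM (0.96, 0.942 to 0.978), Csf2rb2 at 122 and 118 CPM (1.03, 0.994 to 1.07) and Csf3r at 35.2 and 40.1 CPM (0.878, 0.818 to 0.943). Of the 8 response genes 0 were higher and 1 lower (Irf4, 20.4 against 30.6 CPM in WT) in the macrophage sort, and 0 passed in the T-cell sort. Myeloid Csf2 in the T-cell sort was 16 UMIs (0.47 CPM) labelled IL34KO and 1 UMI (0.0182 CPM) in WT, each far under the T-cell level of its own library.

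Neutrophils of the macrophage sort showed no member past 1.5-fold between the labels, where 40% of genes (14.9% higher, 25% lower) passed in these shallow cells (median 2002 UMIs labelled IL34KO and 2250 UMIs in WT). Csf3r stood at 853 CPM labelled IL34KO and 840 CPM in WT (1.01, 0.912 to 1.13). Csf2rb stood at 508 and 459 CPM (1.11, 0.958 to 1.28), Csf2ra at 187 and 175 CPM (1.07, 0.846 to 1.36) and Csf2rb2 at 52.0 and 60.2 CPM (0.864, 0.567 to 1.33). Csf2rb2 made up 9.28% (7.25 to 11.7) of beta chain UMIs in neutrophils labelled IL34KO and 11.6% (8.24 to 15.7) in WT neutrophils, against 18.7% and 18.9% of myeloid cells in the same libraries.

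Over 21 sums of a class in a library, the genes whose log2(CPM + 5) followed a member most closely among 10337 genes were, for Csf2, Mlf1 (Pearson r 0.95), Samd3 and Tnfrsf25, each highest in the BM innate lymphoid class. For Csf2ra they were Sirpa (0.99), Hk3 and Cfp, for Csf2rb Spi1 (0.98), Pirb and Alox5ap, for Csf2rb2 Cfp (0.97), Lmo2 and Hk3, and for Csf3r Siglece (0.99), Mefv and Clec4d. The sums share libraries and fall into few cell types, so these values describe likeness between classes and carry no test.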

How the data were processed

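Live-sorted mouse colon cells were profiled with 10x kits and a G4 sequencer, per the labels' protocols. The authors deposited a matrix of UMI counts per gene and barcode for each of 6 libraries, made with Cell Ranger 7.0.1 on mm10, per the submitters' processing notes. Libraries held 43660889 to 114425913 UMIs.

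Kept barcodes had 500 or more genes detected and a mitochondrial share of no more than 10%, and BM barcodes also found in GVHD were dropped. A class required 3 of 6 T-cell, 6 of 13 myeloid, 6 of 10 neutrophil or 6 of 10 epithelial markers detected; barcodes passing more than 1 gate, which can be doublets, were set aside. Csf3r was in no marker list. The innate lymphoid class required at least 2 of 9 markers in barcodes passing no gate. Thresholds were set after marker counts were seen. Each level is a gene's UMI sum in 1 class of 1 library, scaled to the sum of all genes there (CPM). Levels carry exact Poisson, shares Clopper-Pearson and ratios conditional binomial intervals (95%, scipy 1.17.1); UMIs of 1 cell are not independent, so these cover counting error only. A count of 0 allows 3 counts. With 1 library a group no test was made. A gene counted as measured at 5 CPM in 1 library and as called at 1.5-fold. The calculation was tested on simulated data.

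The members, lists, markers and rules were chosen with earlier results of these data known; the handling list was chosen after its genes' values could be seen. Named genes were the members, up to 4 called genes of a list per comparison, and the 3 genes most like each member. Csf1, the markers of the innate lymphoid class and the genes compared between T cells with and without Csf2 are named outside this rule. They were chosen after their values were seen. 13 processing alternatives were planned and 4 added after seeing the data. edgeR and DESeq2 gave size factors for the deposited counts only. No neutrophil comparison was made in the T-cell sort, which held 20 and 40 neutrophils. Coordinates came from GENCODE M21, promoters from RefSeq.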

Additional observations from a re-analysis of the deposited data

Results flagged for a closer look

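Csf2ra, Csf2rb and Csf3r moved in opposite directions in myeloid cells of the 2 sorts under the same comparison of the IL34KO and WT labels, each with a counting interval that left out 1. The ratio of Csf2ra was 0.867 in the macrophage sort and 1.07 in the T-cell sort, that of Csf2rb 1.08 and 0.96, and that of Csf3r 1.08 and 0.878. The difference between the sorts was not tested, since each has 1 library per label, and all 6 ratios lie within 1.5-fold.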

How the results depend on the processing

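With 1 library per group no replicate could be left out. No paired analysis was possible because each group holds 1 library and the labels give no replicate numbers. In GVHD over BM myeloid cells the ratio of Csf2rb was 2.12 with TMM size factors, 2.11 with median-of-ratios factors, 2.01 after thinning to 2000 UMIs, 1.78 with the shared BM barcodes kept, 1.67 with barcodes of more than 1 library dropped from both, 1.43 on the monocyte side and 1.70 between. That of Csf3r was 0.545, 0.542 and 0.421 under the first 3 of these, 0.566 with those barcodes dropped from both and 0.413 on the mature side. Those factors moved all myeloid ratios of GVHD over BM by 0.16 and 0.15 (log2), those of T cells by -0.14 and -0.12, and neutrophil ratios by 0.13 and 0.09. The Csf2 ratio in T cells of the T-cell sort ranged from 4.82 to 7.11 over 11 alternatives, 7.11 being the thinned value. That of GVHD over BM ranged from 1.45 (thinned) to 5.08 (stricter gate) and turned to 0.746 with barcodes of more than 1 library dropped from both. Without the 5 richest cells it was 10.2, where BM had 2 UMIs left. Members past 1.5-fold were 1 in place of 0 with no CPM floor in either myeloid comparison of the IL34KO and WT labels and in neutrophils thinned to 1000 UMIs. In T cells of the T-cell sort they were 2 in place of 1 with a purer gate. In T cells of GVHD over BM they were 1 in place of 3 with a floor of 20 CPM or after thinning to 1500 UMIs, where Csf2rb2 turned to 0.686. In T cells of the macrophage sort labelled IL34KO over WT they were 1 in place of 4 with a floor of 20 CPM, and 2 without Scrublet doublets, with cells weighted equally or after thinning. The cause was not tested, except that a higher floor leaves fewer genes measured. The other 123 values of these counts and of the main ratios stayed within 1.5 times (counts) or within the counting interval (ratios). The main ratios were Csf2rb and Csf3r in GVHD over BM myeloid cells and Csf2 in T cells of the T-cell sort. Of the values of all remaining ratios, 321 stayed within the interval, 31 left it and 2 of called genes turned to the other side of 1. In GVHD over BM myeloid cells Csf2ra ran from 0.842 (monocyte side) to 1.15 (TMM), and Csf2rb2 reached 2.15 (TMM). Few T cells (98 to 275) in the macrophage sorts limit Csf2 there.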
